A study of Rattus norvegicus with 36 samples.

Results

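The DNA replication genes described here are 44 genes, given by name, that encode the machinery which prepares, starts and carries out the copying of the genome, from the Mcm2 to Mcm7 helicase to Pcna, the polymerases and the enzymes of deoxynucleotide supply. They were found by gene name in the deposited tables, where they carry 45 identifiers of 24275 in all, because Dbf4 is listed under 2 identifiers. Every one of the 45 identifiers passed the filter on low counts in each of the comparisons described here. The choice went by gene name and applied no rule to measured values, but it was made with earlier results of these data known.

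Replication is licensed in G1, when the origin recognition complex, Cdc6 and Cdt1 load the Mcm2 to Mcm7 ring on DNA and geminin, encoded by Gmnn, later holds Cdt1 back. Cdc7 with its activator Dbf4 then turns the ring into a working helicase together with Cdc45, Mcm10 and the GINS proteins. Primase and polymerase alpha start each strand, the replication factor C loader places the Pcna clamp, polymerases delta and epsilon extend it, and Fen1 and Lig1 finish the lagging strand. Transcription of most of these genes is driven by E2F factors and peaks around the start of S phase, so in a culture their RNA is known as a sign of cycling cells.

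RNA was measured in H9C2 cells, a cell line of myoblasts from embryonic rat heart, transfected at 25 nmol/L for 24 h with a mimic control (MC), with miR-125b, or with one of its 3′ isomiRs, which are forms of the microRNA that differ at the 3′ end. The cells were then kept for 24 h in hypoxia or in normoxia. Each of the 12 groups had 3 libraries, and counts of 33 libraries were used, since for Normoxia MC only means given by the authors were used here. Hypoxic cells were in serum-free low-glucose medium and normoxic cells in fresh medium, so oxygen and medium cannot be told apart, and Plus A is an added A while Trim A, Trim AG and Trim AGU lack those bases at the 3′ end. No source used here says that the 3 libraries of a group came from separate cultures, so p-values measure the spread between these libraries, which may be technical.

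The mimics are shown because the comparisons below differ only in their last bases. The mature sequence of rat miR-125b is the RefSeq entry of Mir125b2 (GRCr8, chr11:29732588-29732609, plus strand), the isomiRs were derived from it by the change that their names give, and capitals mark the seed, bases 2 to 8, which is the same in all 5.
miR-125b: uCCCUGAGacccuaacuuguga
Plus A: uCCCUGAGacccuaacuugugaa
Trim A: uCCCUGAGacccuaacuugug
Trim AG: uCCCUGAGacccuaacuugu
Trim AGU: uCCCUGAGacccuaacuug
Their lengths run from 23 bases in Plus A and 22 in miR-125b to 21, 20 and 19 in the trimmed forms.

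Library totals were 28361216 to 42672584 counts, with the 3 Hypoxia Trim AG libraries the deepest at 39940087 or more and all others at 34505938 or less. Hypoxia was visible in its known targets, of which 7 of 7 tested were higher in hypoxia with miR-125b, Plus A and Trim A, 6 with Trim AGU and 4 with Trim AG. Of the myoblast markers, Myod1 had group means of 19.9 to 138 CPM (counts scaled to a common library total), Des of 1.01 to 4.42, and Myf5 of at most 0.0234. Of the leukocyte markers, Ptprc had group means of at most 0.0974 CPM and Cd68 of 0.698 to 1.83 CPM. In bulk RNA, fewer cycling cells and less replication RNA per cell cannot be told apart.

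Several libraries stood apart and touch the results below. Normoxia Plus A replicate 1 lay nearer to Normoxia miR-125b replicates 2 and 3 (root mean square log2 distance 0.242 and 0.226 without the replication genes) than to its own group (0.289 and 0.286). Normoxia miR-125b replicate 1 lay nearer to Normoxia Plus A replicates 2 and 3 (0.225 and 0.233) than to its own group (0.293 and 0.294). The replication genes followed, with the library labelled Normoxia Plus A 1 above both others of its group in 42 of 45 identifiers. The library labelled Normoxia miR-125b 1 was below both others of its group in 39. Shares of all genes placed in this way are not given here. Hypoxia Trim AGU replicate 2 was 0.840 and 0.742 from its own group, whose other 2 libraries were 0.334 apart. Hypoxia Trim A replicate 1 was 0.383 and 0.344 from its group, whose others were 0.234 apart, and Hypoxia Trim AG replicate 2 was 0.391 and 0.296 from its group, whose others were 0.272 apart. Normoxia Trim AGU replicate 2 was 0.350 and 0.317 from its group, whose others were 0.258 apart. Results that rest on these libraries are given with and without them.

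Some libraries also had a trend with gene length. The Spearman correlation across genes between gene length and a library's deviation was -0.373 and -0.354 in Hypoxia Trim A replicates 2 and 3, -0.306 and -0.221 in Hypoxia Trim AG replicates 2 and 3, and -0.500 and -0.382 in Hypoxia Trim AGU replicates 2 and 3, and lay between -0.132 and 0.366 in the other libraries. The highest were 0.366 and 0.252 in Normoxia Trim AGU replicates 2 and 3 and 0.274 in Normoxia Trim A replicate 3. The replication genes had a median length of 2554 bases against 2430 over the 11304 genes compared. Their median log2 fold changes with the trend removed, an alternative chosen after seeing the data, are given where they moved by over 1.5 times. The part of this trend in the calls was not tested.

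The replication genes were lowest in hypoxia and highest in normoxia with the 2 shortest mimics. Their summed level was 768 ± 20.5 CPM (SD, n = 3 here and below) in Hypoxia Plus A, 889 ± 14.4 in Hypoxia MC, 912 ± 6.69 in Hypoxia miR-125b and 1004 ± 67.1 in Hypoxia Trim A. It was 1313 ± 47.1 in Hypoxia Trim AGU and 1515 ± 75.6 in Hypoxia Trim AG. In normoxia it was 1854 ± 303 with Plus A, 2024 ± 264 with miR-125b, 2557 ± 30.4 with Trim A, 3822 ± 114 with Trim AGU and 4010 ± 173 CPM with Trim AG. In this order the libraries of neighbouring groups overlapped for Plus A and miR-125b in normoxia and for Trim AGU and Trim AG in normoxia, and for no other neighbours. The wide spread of Normoxia Plus A came from its replicate 1, at 2204 CPM against 1692 and 1666, and that of Normoxia miR-125b from its replicate 1, at 1720 CPM against 2186 and 2166.

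**Figure D1:**
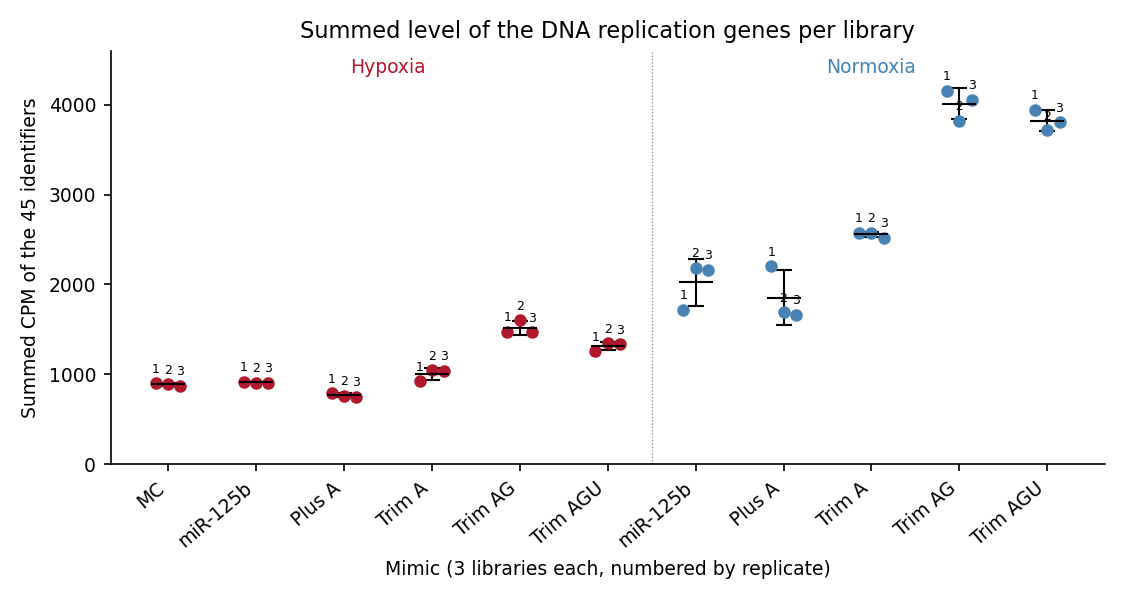
Summed CPM of the 45 replication gene identifiers in each library (points, numbered by replicate), by mimic, in hypoxia (red) and normoxia (blue), with bars for the mean and SD of 3 libraries. Every normoxia library lies above every hypoxia library, from 1666 CPM upwards against 1602 CPM at most, and Trim AG and Trim AGU are the highest mimics in each oxygen condition.

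Across the 11 group means the individual genes moved by very different amounts, from 1.29-fold for Orc2 to 30.4-fold for Clspn, a mediator of the replication checkpoint, with a median of 5.22-fold. The lowest mean of Clspn was only 0.574 CPM, in Hypoxia Plus A, with 8 counts in its lowest library, so its fold is uncertain. In hypoxia, Trim AG gave the highest mean for 34 of the 45 identifiers, Trim AGU for 6, MC for 4 and Trim A for 1, and Plus A gave the lowest for 30 and MC for 12. In normoxia, where MC counts were not used, Trim AG was highest for 35 and Trim AGU for 10, and Plus A was lowest for 43. The shares of all genes with these extremes are not given here, so the counts are not read as particular to the replication genes. On a scale per length, which allows genes to be compared with each other, Pcna was the most abundant of the genes with a mean of 124 FPKM, followed by Rrm2 (68.8), Rrm1 (63.7), Mcm7 (44.8) and Prim1 (40.2), and Clspn was the least abundant at 1.22 FPKM. Rfc1, the large subunit of the clamp loader, and Pold3, a subunit of polymerase delta, joined Orc2 as the flattest genes, at 1.604-fold and 1.99-fold between their lowest and highest group means.

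**Figure D2:**
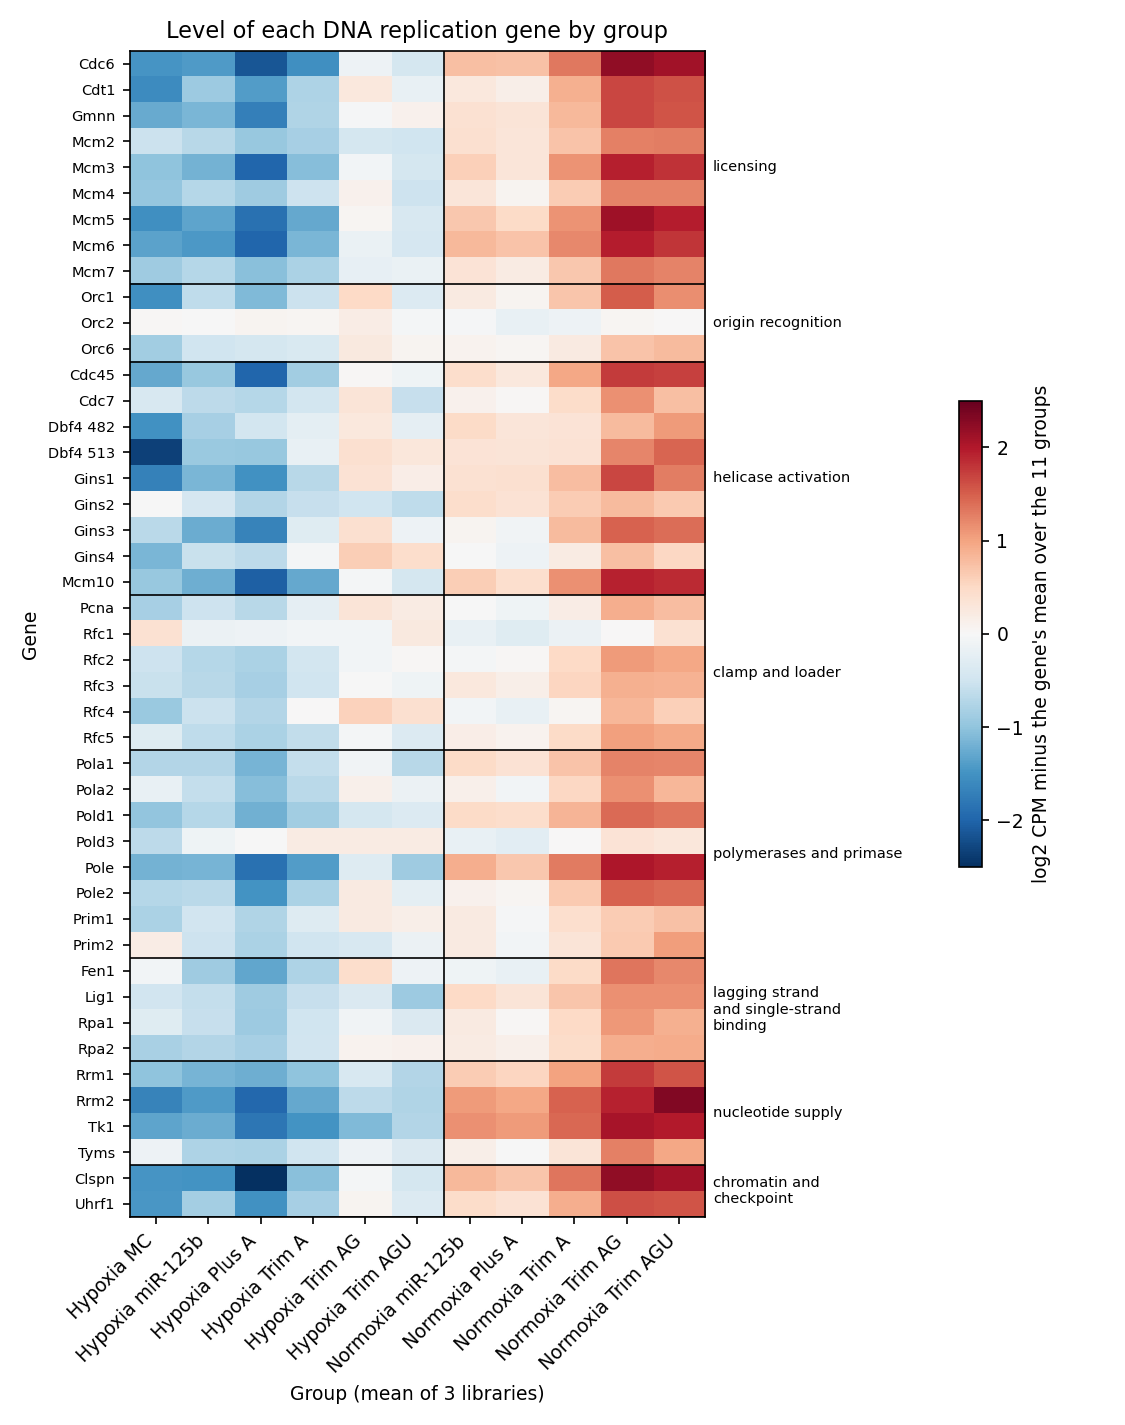
Group means of each replication gene identifier as log2 CPM minus the mean over the 11 groups of that gene (colour), ordered by role, with hypoxia groups left of the vertical line. The red of Normoxia Trim AG and Normoxia Trim AGU covers nearly all roles, whereas Orc2, Rfc1 and Pold3 stay pale in every group.

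The promoters of these genes are shown because many of the genes moved together and E2F words are common in them. RefSeq promoters (GRCr8, 250 bases before to 50 after the gene start) were matched for 39 of the 44 genes, and the words TTTCCCGC, TTTCGCGC, TTTGCCGC and TTTGGCGC, read on both strands, were found in 18 of the 39 (46.2%) against 2.25% of all 27457 promoters. The word CCAAT was in 59.0% of the 39 against 37.7% of all, and TTTGAA, part of a word known from mitotic genes, in 12.8% against 18.1%. The windows below hold an E2F word in capitals. In Mcm2, Mcm5, Mcm6 and Gins1 a copy on the other strand overlaps it, so that the stretch is read in both directions.
Mcm2, chr4:122918090-122918119, minus strand: cgtgacccggtTTTCGCGCgaaaacccgtg
Mcm5, chr19:13488589-13488618, plus strand: tagctcagaagTTTCGCGCcaaaacgtccc
Mcm6, chr13:42404473-42404502, minus strand: tggcgtctgctTTTGGCGCgaaattagcgt
Mcm7, chr12:22163212-22163241, minus strand: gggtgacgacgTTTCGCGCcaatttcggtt
Gins1, chr3:160184884-160184913, plus strand: ggttaagcctaTTTGGCGCcaaagagagga
Tyms, chr9:120776102-120776131, minus strand: aaggtgcgggtTTTGGCGCcgactacactg
The 18 genes with a word had a median log2 fold change of 1.09 for Trim AG against miR-125b in normoxia, and the 22 matched identifiers without one had 0.86. For hypoxia against normoxia with miR-125b the medians were -1.28 and -0.87. Pold3 holds the word TTTCCCGC and was among the flattest genes, and whether a word goes with the response was not tested.

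Comparison of each isomiR with miR-125b in normoxia asked whether the 3′ end alters the response when oxygen is unchanged. Calls needed a p below 0.05 in edgeR's quasi-likelihood test, adjusted by Benjamini-Hochberg, and a fold change of at least 1.5, and rose and fell are used only of called genes. With Trim AG, 37 of the 45 identifiers rose and none fell, with a median log2 fold change of 0.90, against 7.58% of all genes tested that rose, 6.36% that fell and a median of about 0 over all genes. With Trim AGU, 38 rose and none fell (median 0.87), against 6.22% and 5.16% of all genes tested. These comparisons use the same miR-125b libraries, so their values are given side by side and are not independent of each other. Without Normoxia miR-125b replicate 1, 32 rose with each mimic, at medians of 0.81 and 0.77. Without Normoxia Trim AGU replicate 2, 38 rose with Trim AGU (median 0.90).

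All 9 licensing genes rose with Trim AG (median 1.25) and with Trim AGU (median 1.19). Mcm7, a subunit of the helicase ring and the licensing gene with the highest FPKM, was at 93.8, 133 and 131 CPM with miR-125b, at 253, 213 and 244 with Trim AG and at 239, 204 and 229 with Trim AGU. Every library of both trimmed mimics lay above all 3 miR-125b libraries. The log2 fold change was 0.94 ± 0.12 (SE) with Trim AG (edgeR adjusted p = 0.000376) and 0.90 ± 0.13 with Trim AGU (edgeR adjusted p = 0.00154). Larger changes were seen in Mcm5, another subunit of the ring, which was at 61.1, 89.3 and 87.8 CPM with miR-125b and at 228, 196 and 224 with Trim AG (log2 fold change 1.40 ± 0.13, edgeR adjusted p = 6.03e-05). Cdc6, which loads the ring, had the largest rise of the 45 identifiers with both mimics. It was at 10.8, 14.4 and 16.6 CPM with miR-125b and at 40.9, 34.6 and 39.6 with Trim AG, or 2.67-fold higher (log2 1.42 ± 0.14, edgeR adjusted p = 7.35e-05), and the log2 fold change with Trim AGU was 1.34 ± 0.15.

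Of the 3 origin recognition genes, Orc1 and Orc6 rose with both trimmed mimics and Orc2 did not. Orc2, a core subunit of the complex that marks origins, was at 42.4, 42.0 and 42.6 CPM with miR-125b, at 46.3, 44.4 and 43.9 with Trim AG and at 40.4, 49.2 and 41.6 with Trim AGU. The Trim AG libraries of Orc2 all lay just above those of miR-125b and the Trim AGU libraries overlapped them, with log2 fold changes of 0.04 ± 0.05 and 0.04 ± 0.09. Orc1, the subunit whose level follows the cell cycle, rose with Trim AG by 1.25 ± 0.13 on the log2 scale and with Trim AGU by 0.93 ± 0.15.

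Helicase activation genes rose in 7 of 9 identifiers with Trim AG (median 0.98) and 6 of 9 with Trim AGU (median 0.89). Gins1, a subunit of the GINS complex that holds Cdc45 on the helicase, was at 13.4, 19.2 and 16.1 CPM with miR-125b and at 43.2, 35.1 and 40.2 with Trim AG. No library of Gins1 overlapped between those groups (log2 1.24 ± 0.13, edgeR adjusted p = 9.24e-05). Gins3 of the same complex rose by 1.36 ± 0.12 with Trim AG and 1.32 ± 0.13 with Trim AGU, whereas Gins2 had log2 fold changes of 0.30 ± 0.07 and 0.20 ± 0.11 and was not called. The 2 identifiers of Dbf4 differed, since the one annotated as an unprocessed pseudogene rose with both (0.83 ± 0.23 and 1.11 ± 0.25) and the protein-coding one was not called with either (0.26 ± 0.14 and 0.57 ± 0.18). Reads of near-identical copies may be split between them, so Dbf4 is uncertain in all comparisons.

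At the fork, 4 of 6 clamp and loader genes rose with Trim AG and 5 with Trim AGU, as did 5 and 6 of 8 polymerase and primase genes. Pcna, the sliding clamp, was at 113, 146 and 141 CPM with miR-125b, at 270, 230 and 255 with Trim AG and at 253, 212 and 220 with Trim AGU. The separated groups gave log2 fold changes of 0.88 ± 0.10 and 0.77 ± 0.11 (edgeR adjusted p = 0.000146 and 0.00153). Pole2, the second subunit of polymerase epsilon, rose with Trim AG by 1.33 ± 0.15 on the log2 scale and with Trim AGU by 1.31 ± 0.16. Prim1, the catalytic primase, was at 59.2, 77.2 and 75.6 CPM with miR-125b and at 96.7, 88.7 and 94.0 with Trim AG, separated groups with a log2 fold change of 0.35 ± 0.09 that was under the fold threshold. Rfc1 and Pold3 were likewise not called with either trimmed mimic.

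All 4 lagging strand and single-strand binding genes and all 4 nucleotide supply genes rose with both mimics. Rpa1, the large subunit of the protein that coats single-stranded DNA, was at 44.4, 59.96 and 59.9 CPM with miR-125b and at 102, 95.1 and 100.1 with Trim AG (log2 0.81 ± 0.10). Fen1, the flap nuclease, rose by 1.40 ± 0.15 with Trim AG and 1.31 ± 0.18 with Trim AGU. Rrm2, the regulated subunit of ribonucleotide reductase, was at 86.0, 105 and 114 CPM with miR-125b, at 184, 184 and 181 with Trim AG and at 246, 235 and 240 with Trim AGU. The Rrm2 libraries of the 3 groups did not overlap, with log2 fold changes of 0.81 ± 0.09 (edgeR adjusted p = 0.0001445) and 1.24 ± 0.10 (edgeR adjusted p = 0.00016). Uhrf1, which brings the maintenance methyltransferase to newly copied DNA, was at 79.5, 106 and 116 CPM with miR-125b and at 235, 215 and 222 with Trim AG (log2 1.11 ± 0.12), and Clspn rose by 1.37 ± 0.13.

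**Figure D3:**
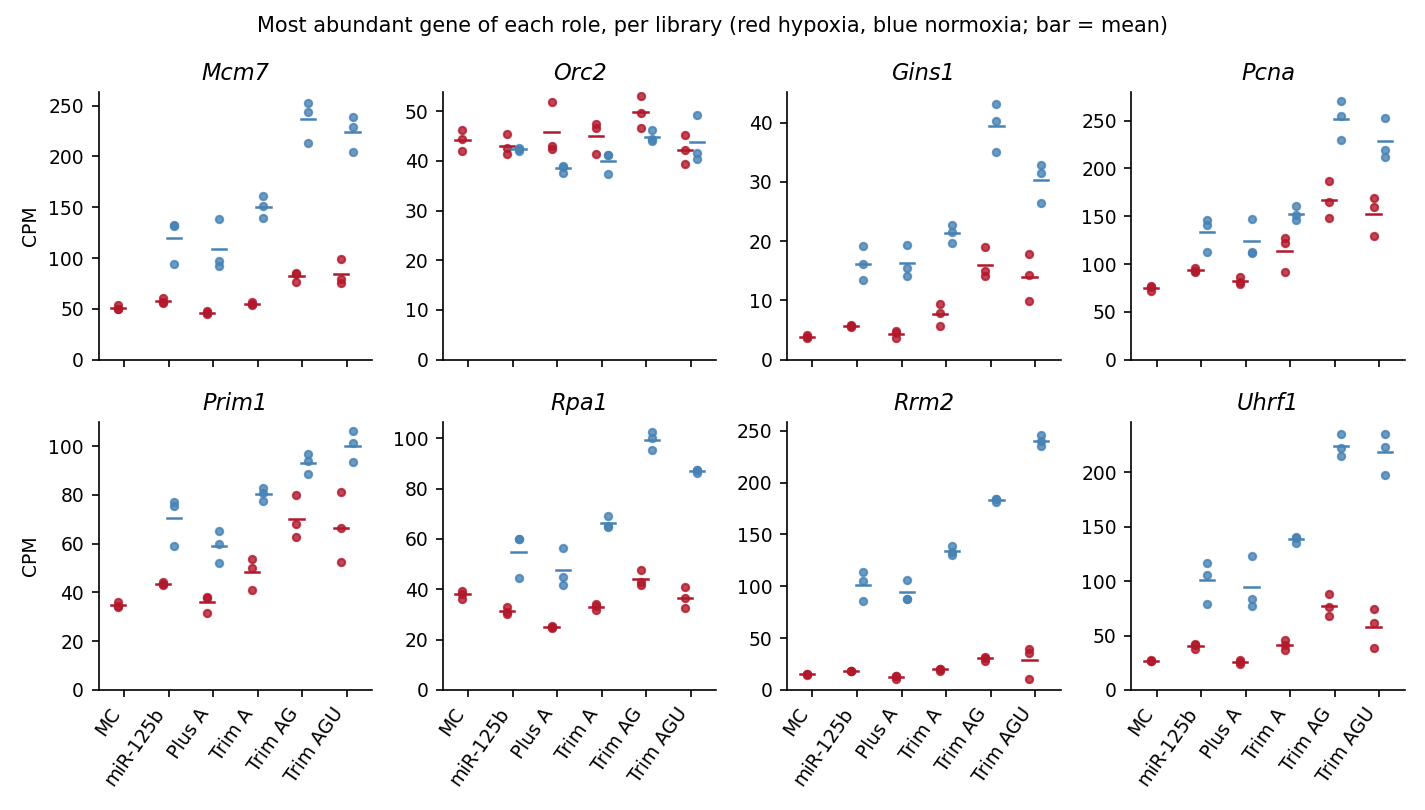
CPM per library (points) and group mean (bars) of the gene with the highest FPKM in each role, by mimic, in hypoxia (red) and normoxia (blue). Mcm7, Gins1, Pcna, Rpa1, Rrm2 and Uhrf1 climb towards Trim AG and Trim AGU in normoxia, Prim1 climbs less, and Orc2 stays between 37.4 and 53.1 CPM in all 33 libraries.

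With Trim A in normoxia, 1 of 45 identifiers rose and none fell (median 0.35), against 0.367% and 0.0475% of all genes tested. Gins3 was the gene called, at 7.43, 10.3 and 9.07 CPM with miR-125b and at 15.3, 14.1 and 15.3 with Trim A (log2 0.74 ± 0.13, edgeR adjusted p = 0.0273). The groups of Gins3 did not overlap, but no member was called when any of the 3 Trim A libraries was left out. Without Normoxia miR-125b replicate 1 the median was 0.24, again with 1 called. DESeq2 called Cdt1 and Fen1 as well, at log2 fold changes of 0.63 and 0.61.

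With Plus A in normoxia, edgeR called 0 of 45 identifiers, as it called 0% of all genes tested, and DESeq2 also called 0. An unadjusted p under 0.05 was reached by 2 identifiers (the share of all genes under that p is not given here), and the median log2 fold change was -0.11. With replicate 1 of both groups left out, a choice made after seeing the data, the median was -0.36 and 2 members fell, Mcm3 by 0.66 and Mcm5 by 0.61 on the log2 scale. Mcm3 was at 58.7, 39.8 and 39.1 CPM with Plus A and at 40.8, 64.2 and 62.8 with miR-125b, so that the groups overlapped only through replicate 1 of each.

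For Normoxia MC only the authors' group means were used, which allow no test. Against Normoxia MC, the Plus A mean was lower in 43 of 45 entries, with a median log2 ratio of -0.58, where 48.9% of the 14789 genes with a mean of 10 or more were lower. A ratio at or below 1/1.5 was seen in 22 entries against 12.1% of those genes. Fen1 had the lowest ratio, with an authors' mean of 408 in Normoxia Plus A and 1228 in Normoxia MC, and Pold3 the highest, with 897 and 847. The Plus A mean holds the doubted replicate 1.

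Comparison with MC in hypoxia asked what each mimic did to cells under low oxygen, and the counts differed widely between mimics. With Trim AG, 32 of 45 identifiers rose and none fell (median 0.96), against 17.0% of all genes tested that rose and 20.2% that fell. With Trim AGU, 25 rose and none fell (median 0.72), against 11.4% and 12.4%. The count was 13 without Hypoxia MC replicate 2, 15 without Hypoxia MC replicate 3 and 29 without Hypoxia Trim AGU replicate 2. All genes called were then 1535, 1457 and 3957, against 1713 higher and 1857 lower with every library. With miR-125b itself, 5 rose and 3 fell (median 0.07), against 9.43% and 12.5% of all genes, shares near the background. With Plus A, 3 rose and 14 fell (median -0.32), against 10.5% and 14.4%. With Trim A, 10 rose and 2 fell (median 0.16), against 12.4% and 15.7%. With the gene length trend removed the median was 0.27 with Trim A and 0.12 with miR-125b. Without Hypoxia Trim A replicate 1, 13 were called with Trim A (median 0.21), and without Hypoxia Trim AG replicate 2, 31 were called with Trim AG. These 5 comparisons share the Hypoxia MC libraries. In the same groups, the summed replication genes were at 889 CPM with MC and 912 CPM with miR-125b. The summed myoblast markers were at 784 ± 12.6 CPM in Hypoxia MC and at 190 ± 0.754 with miR-125b. They were at 90.5 ± 9.95 to 197 ± 3.81 over all hypoxia groups but MC, led by Myog and Tnnt2, genes of differentiated muscle. Their part in the result was not tested.

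With Trim AG, 8 of 9 helicase activation identifiers rose (median 1.36), as did 8 of 9 licensing genes (median 1.25), 2 of 3 origin recognition genes and both chromatin and checkpoint genes (median 1.54). Orc1 was at 3.64, 3.26 and 3.40 CPM in Hypoxia MC and at 13.9, 13.6 and 14.5 in Hypoxia Trim AG, or 4.25-fold higher (log2 2.09 ± 0.12, edgeR adjusted p = 2.52e-06). Gins1 was at 3.80, 4.16 and 3.67 CPM in MC, at 14.1, 19.0 and 15.04 with Trim AG and at 9.82, 17.8 and 14.4 with Trim AGU. Its groups did not overlap with MC for either mimic, at log2 2.11 ± 0.15 and 2.01 ± 0.28 (edgeR adjusted p = 8.92e-06 and 0.00383). With Trim AG, Dbf4 rose by 2.80 ± 0.27 in the identifier annotated as a pseudogene and by 1.85 ± 0.18 in the protein-coding one. Both were low in MC, at 0.793, 1.075 and 1.30 CPM and at 1.19, 1.21 and 1.30 CPM. Cdt1, the loader that geminin inhibits, rose by 1.89 ± 0.09 with Trim AG.

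Fork genes rose less evenly in hypoxia. Pcna was at 76.8, 75.8 and 71.3 CPM in MC, at 148, 187 and 164 with Trim AG and at 130, 170 and 160 with Trim AGU, with no overlap and log2 fold changes of 1.22 ± 0.10 and 1.19 ± 0.16 (edgeR adjusted p = 1.90e-05 and 0.003345). Prim1 was at 36.0, 34.5 and 34.1 CPM in MC and at 62.8, 79.7 and 68.2 with Trim AG (log2 1.07 ± 0.10). Of the 4 lagging strand and single-strand binding genes only Rpa2 rose with Trim AG, and Rpa1, at 36.0, 39.5 and 38.3 CPM in MC and 41.7, 47.5 and 42.9 with Trim AG, had a log2 fold change of 0.28 ± 0.08 and was not called. Rrm2 was at 14.8, 15.8 and 15.0 CPM in MC and 31.2, 32.2 and 28.3 with Trim AG (log2 1.07 ± 0.09). With Trim AGU, Rrm2 was at 39.8, 10.5 and 35.8 CPM, replicate 2 being below every MC library, and the log2 fold change of 1.02 ± 0.41 was not called (edgeR adjusted p = 0.0998).

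Some replication genes were lower than in MC with miR-125b, Plus A and Trim A. The share that fell was below that of all genes tested with miR-125b (12.5%) and Trim A (15.7%). With Plus A it was above that of all genes tested (14.4%). Fen1 was at 15.97, 14.3 and 14.3 CPM in MC, at 8.22, 9.78 and 7.39 with miR-125b and at 6.01, 6.95 and 6.02 with Plus A. The groups did not overlap, and Fen1 fell by 0.78 ± 0.11 with miR-125b (edgeR adjusted p = 0.0001337) and by 1.21 ± 0.11 with Plus A (edgeR adjusted p = 6.50e-06) on the log2 scale. With Trim A it fell by 0.64 ± 0.12, while with Trim AG its log2 fold change was 0.58 ± 0.11, just under the fold threshold. Prim2, the large primase subunit, fell by 0.67, 0.95 and 0.64 with miR-125b, Plus A and Trim A. Besides Fen1, the 14 genes that fell with Plus A included Clspn (by 1.19 ± 0.38), Mcm10 (by 1.08 ± 0.20), Mcm3 (by 0.97 ± 0.11) and Gins3 (by 0.96 ± 0.18). Uhrf1 rose by 0.63 ± 0.06 with miR-125b, with 27.5, 26.9 and 26.4 CPM in MC and 37.8, 41.3 and 42.5 with miR-125b, and it rose by 0.67 ± 0.09 with Trim A.

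**Figure D4:**
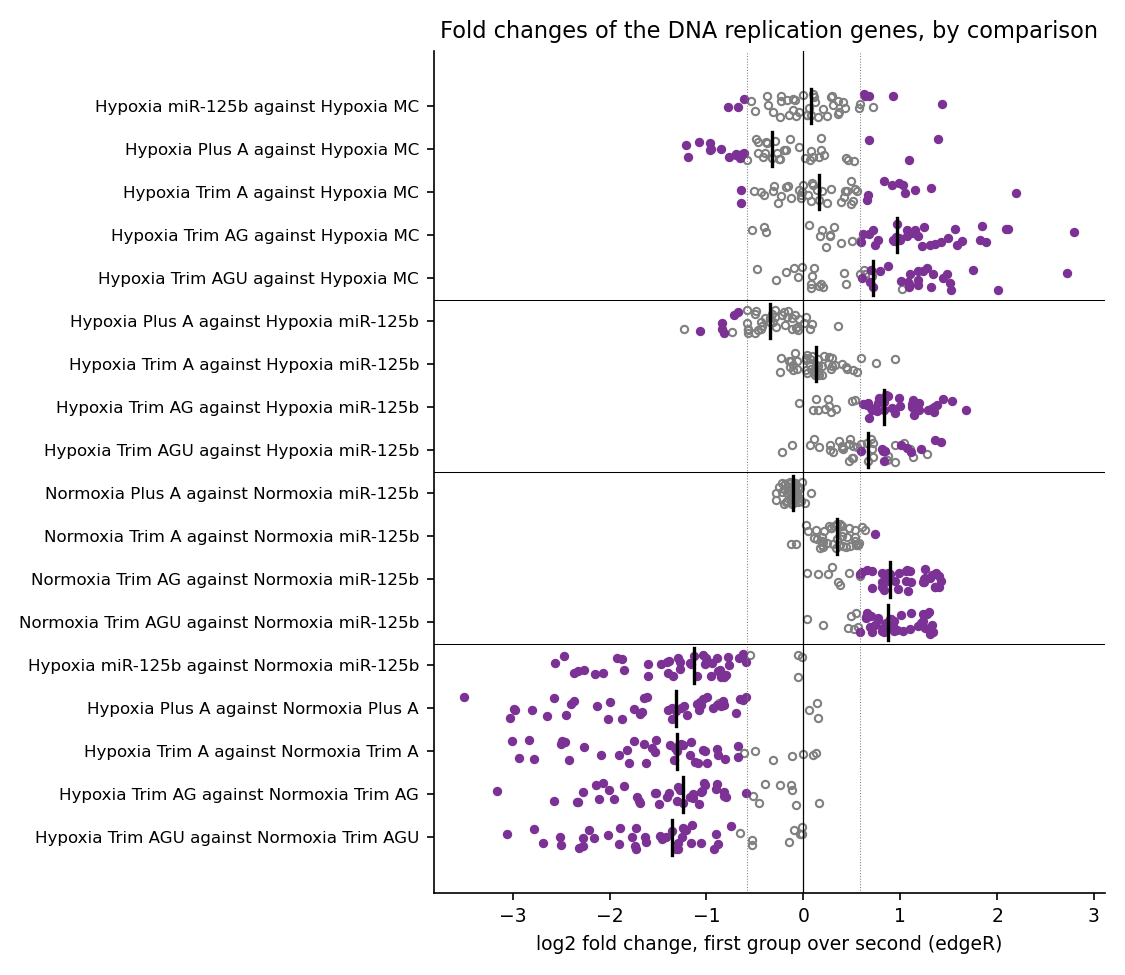
log2 fold change (edgeR) of each of the 45 replication gene identifiers in the 18 comparisons, first group over second, with called genes filled, black bars for the medians and dotted lines at 1.5-fold. The clouds of Trim AG and Trim AGU lie to the right of 0 (medians 0.67 to 0.96), and the 5 hypoxia against normoxia clouds lie to the left (medians -1.13 to -1.35).

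Direct comparison with miR-125b in hypoxia separated the isomiRs in the same oxygen condition. With Trim AG, 34 of 45 identifiers rose and none fell (median 0.83), against 7.85% of all genes tested that rose and 11.5% that fell. The genes with the largest changes were Gins3 (3.19-fold, log2 1.68 ± 0.24), Gins1 (1.53 ± 0.14), Clspn (1.45 ± 0.22) and Mcm5 (1.38 ± 0.08). Mcm5 was at 20.2, 18.5 and 21.3 CPM with miR-125b and at 55.6, 50.0 and 49.0 with Trim AG, far apart (edgeR adjusted p = 2.44e-05). Mcm7, at 60.5, 56.7 and 55.6 CPM with miR-125b and 85.7, 84.0 and 76.4 with Trim AG, was separated too, but its log2 fold change of 0.53 ± 0.08 was under the fold threshold. Mcm2, Orc2, Rfc1, Pold1, Pold3, Prim2, Lig1, Tk1, Gins2 and Rpa1 were the others not called. Without Hypoxia Trim AG replicate 2 the count was 30 (median 0.75).

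With Trim AGU in hypoxia, 11 of 45 identifiers rose and none fell against miR-125b (median 0.67), against 1.83% that rose and 1.93% that fell of all genes tested. The genes were 6 of the 9 licensing genes (Mcm3, Mcm5, Mcm6, Cdc6, Cdt1 and Gmnn), Gins1, Gins3, Pcna, Fen1 and Tk1. Gins1 had the largest log2 fold change, 1.42 ± 0.27 (edgeR adjusted p = 0.0392), followed by Gmnn (1.36 ± 0.27), and Mcm6 was at 25.7, 25.8 and 26.1 CPM with miR-125b and at 44.4, 60.3 and 51.8 with Trim AGU. Uhrf1 was at 74.2, 38.9 and 61.6 CPM with Trim AGU, so that replicate 2 lay among the miR-125b libraries. The count was 20 without Hypoxia Trim AGU replicate 2, 18 without replicate 1 and 1 without replicate 3. It was 0 without any 1 of the miR-125b libraries and 0 with the replicate number as a block. DESeq2 called 22. The calls among all genes moved too, from 275 higher and 290 lower in the main fit. They were 1301, 1477 and 89 without Trim AGU replicate 2, 1 and 3, 54 with the block and 1283 with DESeq2. Whether Trim AG and Trim AGU differ from each other was not tested.

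With Plus A in hypoxia, 6 of 45 identifiers fell and none rose against miR-125b (median -0.34), against 1.32% of all genes tested that fell and 0.707% that rose. Cdc45, which joins the ring to make the active helicase, was at 6.02, 7.16 and 6.33 CPM with miR-125b and at 2.57, 3.17 and 3.69 with Plus A, without overlap (it fell by 1.06 ± 0.16 on the log2 scale, edgeR adjusted p = 0.00401). The others were Mcm10 and Pole2 (each by 0.84), Mcm3 (by 0.82), Pole (by 0.72) and Uhrf1 (by 0.68). Without Hypoxia Plus A replicate 1 the count was 10.

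With Trim A in hypoxia, edgeR called 0 of 45 identifiers against miR-125b, and 0.873% of all genes tested were called in either direction. An unadjusted p under 0.05 was seen for 10 identifiers, a count given without the share of all genes and not read as a result. The median log2 fold change was 0.13. Gins3 had the largest log2 fold change, 0.95 ± 0.24, and was called by DESeq2, the only gene that was. Mcm7 was at 53.8, 56.3 and 54.9 CPM with Trim A, overlapping the miR-125b libraries, with a log2 fold change of -0.06 ± 0.07. Without Hypoxia Trim A replicate 1, 4 genes were called, Gins1, Gins3, Gins4 and Rfc4, and the number of all genes called went from 132 to 975.

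Comparison of hypoxia with normoxia under the same mimic asked what low oxygen with its medium did, and gave the widest changes. With miR-125b, 41 of 45 identifiers fell and none rose (median -1.13), against 11.5% of all genes tested that fell and 9.34% that rose. The numbers that fell were 41 with Plus A (median -1.32, against 12.8% that fell and 10.0% that rose of all genes), 38 with Trim A (median -1.30, against 14.5% and 12.0%), 37 with Trim AG (median -1.24, against 17.8% and 15.0%) and 37 with Trim AGU (median -1.35, against 13.4% and 13.6%), and none rose. These 5 comparisons share no library with each other. The numbers were 42 with miR-125b and 38 with Plus A without replicate 1 of the normoxia group, 36 with Trim A without Hypoxia Trim A replicate 1, 38 with Trim AG without Hypoxia Trim AG replicate 2 and 40 with Trim AGU without Hypoxia Trim AGU replicate 2. With Trim AGU the number was 31 without Normoxia Trim AGU replicate 2. All 9 licensing, all 4 lagging strand and single-strand binding, all 4 nucleotide supply and both chromatin and checkpoint genes fell under every mimic.

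Nucleotide supply genes had a median of -2.17 with miR-125b. Rrm2 was at 86.0, 105 and 114 CPM in normoxia and at 17.9, 18.3 and 18.4 in hypoxia, or 5.90-fold lower (log2 -2.56 ± 0.10, edgeR adjusted p = 1.75e-07). With the other mimics its log2 fold change was between -3.06 and -2.58, and with Trim AGU it rests partly on replicate 2 at 10.5 CPM, below replicates 1 and 3. Tk1, the salvage kinase for thymidine, was at 74.5, 94.9 and 89.5 CPM in normoxia and at 15.8, 16.3 and 17.2 in hypoxia with miR-125b, and its log2 fold change was between -3.16 and -2.47 over the 5 mimics.

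Licensing genes had a median of -1.61 with miR-125b, and Uhrf1 and Clspn, of the chromatin and checkpoint group, one of -1.88. Mcm6 was at 108, 130 and 130 CPM in normoxia and at 25.7, 25.8 and 26.1 in hypoxia with miR-125b, or 5.03-fold lower (log2 -2.33 ± 0.07, edgeR adjusted p = 8.55e-08). Cdc6 was at 10.8, 14.4 and 16.6 CPM in normoxia and at 3.82, 2.45 and 2.94 in hypoxia. Mcm7 fell by a smaller log2 of 1.13 ± 0.12, so the subunits of 1 ring did not change by equal amounts. Clspn had the largest change of any member, in Plus A, where it was at 7.43, 4.85 and 5.95 CPM in normoxia and at 0.267, 0.775 and 0.679 in hypoxia (11.3-fold lower, log2 -3.50 ± 0.32, edgeR adjusted p = 1.99e-05). These hypoxia levels are near the floor, and the 7.43 CPM comes from the doubted replicate 1.

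The clamp and loader genes fell least of the larger groups, with a median of -0.68 with miR-125b and 4 of 6 called. Pcna was at 95.9, 92.0 and 92.3 CPM in hypoxia against 113, 146 and 141 in normoxia with miR-125b, separated by a log2 of -0.59 ± 0.08, and was called with miR-125b, Plus A and Trim AG only. Orc2, Rfc1 and Pold3 were not called with oxygen under any mimic, and their log2 fold changes lay between -0.12 and 0.16. Rfc4 was called with Plus A only, and Gins4 with miR-125b and Plus A only. An effect called with 1 mimic and not with another is not shown to differ between them.

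The difference itself was tested as an interaction between oxygen and isomiR, with miR-125b as the reference mimic. With Trim AG, 2 of 45 identifiers were called, both lower, against 6.97% of all genes tested that were lower and 4.29% that were higher, and the median was -0.11. The median was 0.01, of the other sign, without Normoxia miR-125b replicate 1, and -0.061 with the gene length trend removed. Tk1 was at 19.8, 16.2 and 18.4 CPM in Hypoxia Trim AG and at 168, 159 and 162 in Normoxia Trim AG, against 15.8, 16.3 and 17.2 and 74.5, 94.9 and 89.5 with miR-125b. Trim AG thus went with a log2 fold change of Tk1 of 0.16 ± 0.09 in hypoxia and 0.87 ± 0.08 in normoxia, and the interaction was -0.73 ± 0.12 (edgeR adjusted p = 0.00169). Pold1, the catalytic subunit of polymerase delta, was at 25.4, 17.2 and 22.1 CPM in Hypoxia Trim AG, 79.7, 75.0 and 79.6 in Normoxia Trim AG, 18.9, 17.2 and 17.6 in Hypoxia miR-125b and 36.0, 42.2 and 44.5 in Normoxia miR-125b. Its interaction was -0.62 ± 0.16 (edgeR adjusted p = 0.0135) and was not called without Normoxia miR-125b replicate 1 (-0.53), Hypoxia miR-125b replicate 1 (-0.57) or Hypoxia Trim AG replicate 2 (-0.485). Without Normoxia miR-125b replicate 1 the interaction of Tk1 was -0.63 and still called.

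For the other isomiRs edgeR called 0 identifiers in the interaction, where 0.0193% (Plus A), 0.605% (Trim A) and 0.966% (Trim AGU) of all genes tested were called in either direction. An unadjusted p under 0.05 was seen for 13, 16 and 8 identifiers, and DESeq2 called 1 (Cdc45), 1 (Pole) and 3 (Mcm4, Pole and Pole2), all lower. The share of all genes under that unadjusted p is not given here, so these counts are not read as a result about the replication genes. The medians were -0.23, -0.17 and -0.23, and without Normoxia miR-125b replicate 1 they were -0.10, -0.09 and -0.12. Without Hypoxia Trim A replicate 1, 3 identifiers were called in the interaction with Trim A, and without Hypoxia Trim AGU replicate 2, 1 was called in that with Trim AGU. Without both doubted normoxia libraries the median for Plus A was 0.04, of the other sign, again with 0 called.

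Other genes of the same pathway came from a list of 33 further replication and histone chaperone genes, of which 32 were tested. In normoxia none of the 32 fell with Trim AG or Trim AGU. With Trim AG 18 rose (median 0.72), against 7.58% of all genes tested, and with Trim AGU 18, against 6.22%. They included Ticrr, which helps load Cdc45 (1.22 ± 0.09), Recql4 (1.18 ± 0.11), and the histone chaperones Chaf1a (1.10 ± 0.08) and Asf1b (1.08 ± 0.10) with Trim AG. In hypoxia 10 of 32 rose with Trim AG and 2 with Trim AGU against miR-125b, where 7.85% and 1.83% of all genes tested rose. Between 16 and 19 of 32 fell in hypoxia under each mimic, against 11.5% to 17.8% of all genes tested. Dscc1, of an alternative clamp loader, rose by 1.21 ± 0.155 with Trim AG against miR-125b in hypoxia.

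Among 21 genes of E2F and G1/S control, 7 rose and 1 fell with Trim AG in normoxia, against 7.58% and 6.36% of all genes tested. E2f8 rose by 1.39 ± 0.11, Ccna2, the S phase cyclin, by 1.29 ± 0.09, E2f7 by 1.26 ± 0.15 and Ccne2, a cyclin of the G1/S transition, by 1.17 ± 0.11, while Ccnd2 fell by 0.76 ± 0.10. Between 11 and 13 of the 21 fell in hypoxia under each mimic, against 11.5% to 17.8% of all genes tested. With miR-125b, E2f7 fell by 2.75 ± 0.22 and Ccna2 by 2.42 ± 0.10. Of 8 tested CDK inhibitor and quiescence genes, Cdkn1a, which encodes p21, fell by 0.78 ± 0.06 and Cdkn2b by 0.64 ± 0.09 with Trim AG in normoxia, and Btg2 rose by 0.71 ± 0.17. Against MC in hypoxia, Cdkn2b fell by 1.98 ± 0.07 with Trim AG, Ccng2 by 1.87 ± 0.07 and Cdkn2a by 0.61 ± 0.12.

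Mitosis genes had larger medians than the replication genes with Trim AG, with Trim AGU and in hypoxia against normoxia. All 17 tested rose with each of the 2 shortest mimics. This held in both oxygen conditions when miR-125b was the reference, and in hypoxia when MC was. No test with MC was possible in normoxia. The medians for Trim AG over miR-125b were 1.14 in normoxia and 1.56 in hypoxia. All 17 fell in hypoxia under every mimic. With Trim A in normoxia none of the 17 was called. In hypoxia 10 of 17 rose with Trim A against miR-125b, where no replication gene did. There 0.873% of all genes tested were called in either direction. In that hypoxia comparison, all genes called went from 132 to 975 without Hypoxia Trim A replicate 1 and to 7 with the replicate block. With Trim AGU against miR-125b in hypoxia, only 27, 38 and 36 genes in all were called without miR-125b replicate 1, 2 and 3. The mitosis counts without single libraries are not given here. In the interaction of oxygen with Trim AG, 3 mitosis genes were called higher, against 4.29% of all genes tested. They were Ccnb1 (0.61 ± 0.18), Cenpf (0.64 ± 0.17) and Ube2c (0.64 ± 0.16), whereas the 2 replication genes called were lower. Whether the 2 lists differ was not tested.

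**Figure D5:**
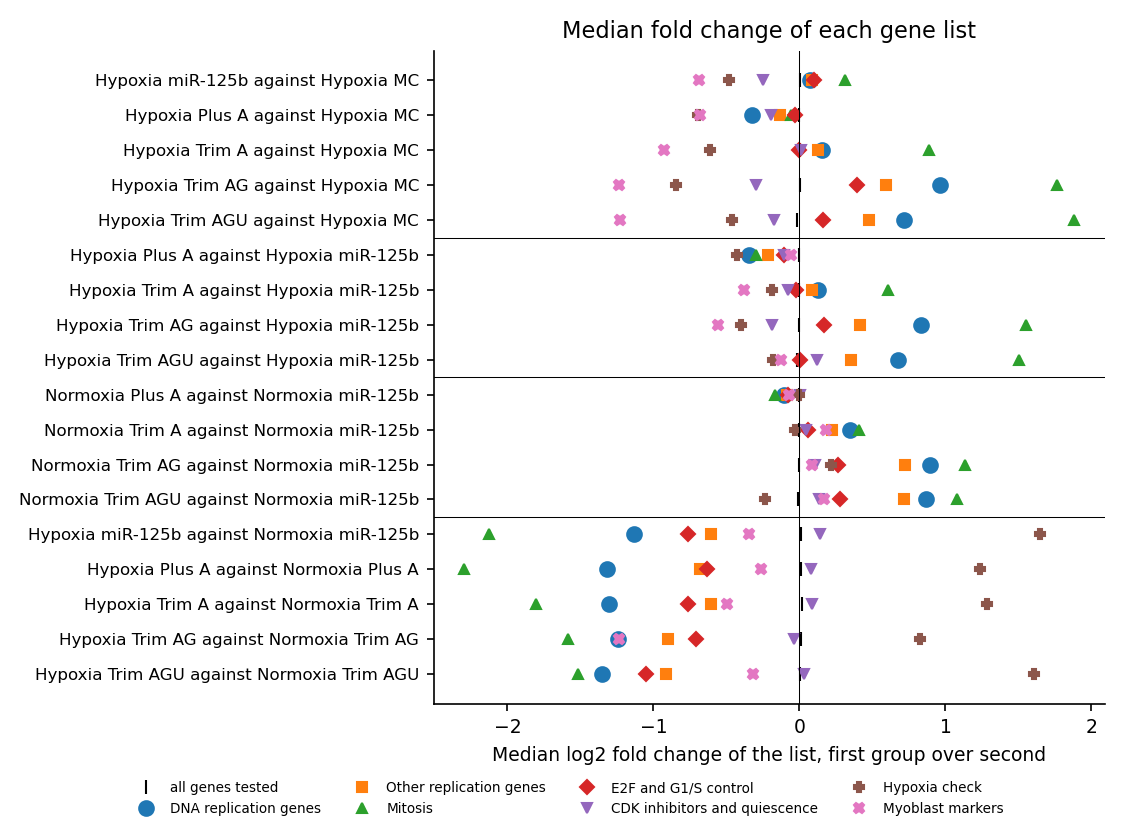
Median log2 fold change (edgeR), first group over second, of the replication genes (blue circles) and of the other gene lists in the 18 comparisons, with black ticks for all genes tested. The replication genes lie between the mitosis genes and the other replication genes in the Trim AG comparisons (0.90 in normoxia against 1.14 and 0.72), and the known hypoxia targets lie on the opposite side in hypoxia against normoxia.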

How the data were processed

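Poly-A RNA of H9C2 cells was sequenced by a non-stranded method, so a gene and an antisense partner cannot be told apart. HISAT2 and StringTie are named in the submitters' processing notes; the genome build and the counting settings are not given in the sources used here. The deposited tables hold raw counts per gene, FPKM values made by the authors, and, for each pair of groups, group mean signal values (the authors' normalised means), which alone were used for Normoxia MC. Their columns of fold changes and p-values were not used.

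Counts of 33 libraries were joined over 11 tables, and a gene absent from a table was set to 0. Groups were taken from the sample labels. Each pair of groups was fitted with edgeR 4.0.16 (R 4.3.3; filterByExpr, TMM, quasi-likelihood test) on all genes, with Benjamini-Hochberg adjustment, and a gene was called at an adjusted p below 0.05 and a fold change of 1.5 or more. The 18 comparisons and 4 interactions of oxygen with an isomiR were repeated with DESeq2 1.42.0 and under the alternatives described at the end. The fit was tested on simulated data. The totals ran from 28361216 to 42672584 counts. How counting error compares with the spread between libraries was not tested for single genes.

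All 44 genes could be named, with values per library for the gene of highest FPKM in each role and for up to 5 called genes per direction with the largest changes and no overlap; other genes given per library (Mcm3, Mcm6, Cdc45, Tk1, Pold1 and Fen1 in some comparisons, for example) were chosen after their values were seen. Up to 4 genes of each other list were named by the same rule. The genes and lists were chosen with earlier results of these data known.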

Additional observations from a re-analysis of the deposited data

Results flagged for a closer look

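The effect of Trim AG against miR-125b differed between hypoxia and normoxia for 2 of the 45 replication gene identifiers, by edgeR's test of the interaction itself. Both were lower, against 6.97% of all genes tested that were called lower and 4.29% called higher. The replication genes were thus not called more often than genes at large. Tk1 had an interaction of -0.73 on the log2 scale, called under every alternative tried, with values from -0.63 to -0.80. Pold1 had an interaction of -0.62, which was not called without a filter on low counts (-0.58), nor when Normoxia miR-125b replicate 1, Hypoxia miR-125b replicate 1 or Hypoxia Trim AG replicate 2 was left out.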

How the results depend on the processing

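Among 2981 alternative values of single genes, 2868 kept their side of the threshold, 83 lost the call and 30 gained it. These counts do not cover changes of sign in genes that were not called. Without a fold threshold the counts of genes called were 27 for miR-125b, 32 for Plus A and 24 for Trim A in hypoxia with MC as control, 21 for Plus A against miR-125b in hypoxia, 8 for Trim A in normoxia and 4 in the interaction with Trim AG. In the same order, the interaction aside, 9008 of 15143, 8583 of 15159, 7905 of 15183, 2408 of 15134 and 283 of 14732 of all genes tested were called. With miR-125b and Trim A against MC, the share of replication genes called was near that of all genes. DESeq2 called 1 for Trim A and 22 for Trim AGU against miR-125b in hypoxia, 3 for Trim A in normoxia, and 1, 1 and 3 in the interactions with Plus A, Trim A and Trim AGU. With all libraries in 1 fit, the hypoxia comparisons with miR-125b had 1 (Trim A) and 25 (Trim AGU) called and the interaction with Trim AGU 6. In those hypoxia comparisons 211 (Trim A) and 2356 (Trim AGU) of all genes were called. Scaling by library size gave 6 for Trim AGU against miR-125b in hypoxia, where the median of all genes was -0.11, against -0.02 with TMM; for Trim AGU against MC it was -0.15, against -0.02, and the members' median was 0.58, against 0.72. Without a filter on low counts Trim A in normoxia had 3 called and the interactions with Trim A and Trim AG 1 each. Leaving out both doubted normoxia libraries gave 2 for Plus A in normoxia. The cause was not tested.

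Same-numbered libraries deviated together in 0 of 18 comparisons with every correlation above 0.1 (range -0.162 to 0.0742), so the numbers do not pair them; with the replicate number as a block, 0 genes were called for Trim AGU in hypoxia and for Trim A in normoxia, each against miR-125b.

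Leaving out 1 library at a time gave these ranges of genes called. Against MC in hypoxia they were 8 to 10 (miR-125b), 14 to 18 (Plus A), 11 to 14 (Trim A), 30 to 34 (Trim AG) and 13 to 29 (Trim AGU). Against miR-125b in hypoxia they were 6 to 10 (Plus A), 0 to 4 (Trim A), 30 to 34 (Trim AG) and 0 to 20 (Trim AGU), and in normoxia 0 to 0 (Plus A), 0 to 2 (Trim A, 2 without Normoxia miR-125b replicate 3), 32 to 38 (Trim AG) and 32 to 40 (Trim AGU). For hypoxia against normoxia they were 39 to 42 (miR-125b), 38 to 42 (Plus A), 36 to 39 (Trim A), 36 to 38 (Trim AG) and 31 to 40 (Trim AGU). For the interactions they were 0 to 0 (Plus A), 0 to 3 (Trim A, 3 without Hypoxia Trim A replicate 1), 1 to 4 (Trim AG, 1 without Normoxia miR-125b replicate 1 or Hypoxia Trim AG replicate 2 and 4 without Hypoxia miR-125b replicate 2 or Hypoxia Trim AG replicate 1) and 0 to 4 (Trim AGU, 4 without Hypoxia Trim AGU replicate 1).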
